A study of Mus musculus with 8 samples.

Results

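The adenosine receptor genes are the 4 genes that encode the receptors of extracellular adenosine, Adora1, Adora2a, Adora2b and Adora3. Tmigd3, which encodes a membrane protein with an immunoglobulin domain and overlaps Adora3, was taken with them. These 5 genes were selected by symbol from the 31406 genes of the deposited table for both groups, and all 5 were found. RNA sequencing was done on 8 primary cultures of wild-type mouse striatal microglia prepared from C57/BL6 pups in the first days after birth, kept for 15 days and then activated over 48 h. Activation was by lipopolysaccharide (LPS, 0.01% v/v) together with interferon-γ (0.002% v/v), which the methods list as human interferon-γ. All 8 cultures received SCH 58261, an antagonist of the adenosine A2A receptor, at 24, 32 and 40 h. In 4 of them (dual group) 2-Cl-IB-MECA, an agonist of the adenosine A3 receptor, was present as well at 200 nM, and in the other 4 (A2A antagonist group) it was not. Groups were taken from the sample titles, because the treatment field named 2-Cl-IB-MECA in the group titled without it and left it out in the other, for all 8 libraries, so the direction of each difference rests on the titles. No source used here states which cultures came from the same mother or plate, so p-values measure the spread between these cultures. The labels also give a time of day 3 for every library, without saying what it counts from. Activated cultures without ligand were not analysed here.

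Adenosine is released by stressed or activated cells and is also formed outside the cell from ATP. It acts on G protein-coupled receptors: the A1 and A3 receptors couple to Gi proteins, which lower cyclic AMP, and the A2A and A2B receptors couple to Gs proteins, which raise it. The A2B receptor needs more adenosine than the A2A receptor to be activated. In microglia, the immune cells of the brain, A2A receptor expression is known to rise upon inflammatory activation. In mice and humans the gene for the A3 receptor lies at the same locus as Tmigd3.

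The total count per library ranged from 32630602 to 45878639. The 12 microglial markers examined were all detected, with C1qa, a complement component, at a mean of 419.6 FPKM (fragments per kilobase of exon per 1000000 counted) and Csf1r, the receptor of the growth factor CSF1, at 46.0 FPKM, but P2ry12, a marker of resting microglia, was at 0.715 FPKM. The 12 microglial markers summed to between 569 and 691 FPKM in a library, and 9 astrocyte markers, led by Gfap (389.8 FPKM) and Mlc1 (302.5 FPKM), summed to between 1352 and 1440 FPKM. Markers of oligodendrocyte lineage cells (Olig1, 119 FPKM, and Olig2, 44.4 FPKM, led the list) and fibroblasts (Dcn, 95.3 FPKM, and Col3a1, 77.6 FPKM) were present as well, with summed levels of 204 to 240 and 280 to 352 FPKM. Mural cell markers, led by Acta2 (49.8 FPKM) and Pdgfrb (14.3 FPKM), summed to 61.9 to 71.9 FPKM. Endothelial markers (Cdh5, 8.19 FPKM, and Kdr, 1.53 FPKM, were the highest) summed to below 14 FPKM. Neuronal markers, led by Map2 (5.84 FPKM) and Gad1 (4.98 FPKM), also summed to below 14 FPKM. The other neuronal markers listed were Tubb3 (1.53 FPKM), Syt1 (0.793 FPKM), and Rbfox3, Snap25 and Slc17a7, each below 0.1 FPKM on average. The libraries therefore held RNA of several glial and stromal cell types, and the cell type that carried each receptor transcript was not measured. The methods report a high purity of microglia by anti-CD11b labelling of the cells, which these RNA levels do not measure. In such bulk RNA a smaller number of cells of one type and less RNA per cell cannot be told apart.

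Adora3 (ENSMUSG00000000562) and Tmigd3 (ENSMUSG00000074344) lie on the plus strand of chromosome 3, at chr3:105870858-105908926 and chr3:105870903-105924042 (GRCm38). According to GENCODE M21, 779 exonic bases belong to both genes, which is 20.9% of the 3729 exonic bases of Adora3 and 33.9% of the 2296 of Tmigd3. The overlap falls in 2 places. The first exon of Adora3-202 (154 bases) shares 109 bases with first exons of Tmigd3, and the first exon of Adora3-201 (732 bases) shares 670 bases with the first exon of Tmigd3-202. The last exon of Adora3-201, with 1638 bases, shares none. How the counting treated reads from bases of both genes is not stated in the sources used here, so the counts of these genes are uncertain to that extent.

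**Figure D1:**
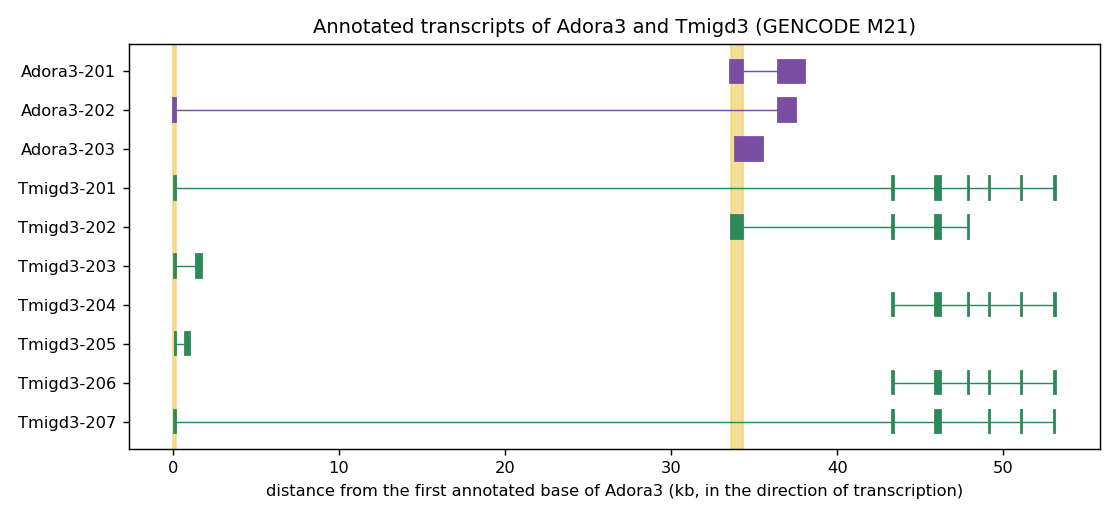
Annotated transcripts of Adora3 (purple, 3 transcripts) and Tmigd3 (green, 7 transcripts) by distance from the first annotated base of Adora3 in kb. Boxes are exons, thin lines introns, and the yellow bands mark the exons in which both genes have bases, near 0 and near 34 kb.

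The bases before the annotated starts are shown for both genes of this locus and for Adora2b and Adora1, the receptor genes with the highest levels. They come from RefSeq (GRCm38.p6), which had entries for 4 of the 5 genes (all but Adora2a), and give the 250 bases before the first transcribed base, 5′ to 3′ on the strand of the gene. Capitals mark the GC box (GGGCGG, or CCGCCC on the other strand). The Tmigd3 sequence (chr3:105870608-105870857) ends right before 105870858, which is also the first base of Adora3-202. The Adora3 sequence (chr3:105904171-105904420) ends before the first base of Adora3-201 and lies in an intron of Tmigd3-201. Those of Adora2b (chr11:62248734-62248983) and Adora1 (chr1:134235458-134235707, minus strand) are from the plus and minus strand.
Tmigd3: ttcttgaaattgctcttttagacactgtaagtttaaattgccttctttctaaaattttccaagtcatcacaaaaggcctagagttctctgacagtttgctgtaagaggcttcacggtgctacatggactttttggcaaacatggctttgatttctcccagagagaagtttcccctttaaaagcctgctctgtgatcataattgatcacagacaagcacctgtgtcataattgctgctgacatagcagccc
Adora3: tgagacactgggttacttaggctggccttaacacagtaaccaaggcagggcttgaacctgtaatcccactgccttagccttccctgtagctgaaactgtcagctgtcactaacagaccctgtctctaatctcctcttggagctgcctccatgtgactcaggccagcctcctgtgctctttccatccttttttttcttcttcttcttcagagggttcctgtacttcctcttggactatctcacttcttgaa
Adora2b: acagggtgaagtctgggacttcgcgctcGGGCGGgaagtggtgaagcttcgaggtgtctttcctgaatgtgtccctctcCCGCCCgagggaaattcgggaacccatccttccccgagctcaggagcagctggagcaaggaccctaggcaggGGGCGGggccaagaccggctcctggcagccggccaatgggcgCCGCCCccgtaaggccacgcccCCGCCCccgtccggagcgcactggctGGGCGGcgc
Adora1: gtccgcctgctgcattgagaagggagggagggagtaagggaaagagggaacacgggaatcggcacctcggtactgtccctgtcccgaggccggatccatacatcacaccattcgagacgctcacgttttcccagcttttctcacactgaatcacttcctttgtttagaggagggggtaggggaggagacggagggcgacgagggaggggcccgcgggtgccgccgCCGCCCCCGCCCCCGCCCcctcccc

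Of the 250 bases, 69.6% were G or C for Adora2b, 64.4% for Adora1, 48.8% for Adora3 and 40.8% for Tmigd3, against a median of 52.4% over the 32851 promoters of the table. The Adora2b sequence held 6 GC boxes and the Adora1 sequence 3, in a row without overlap, whereas 32.7% of all promoters held at least 1. A second Adora1 start in the table (chr1:134234857-134235106) had none. The cyclic AMP response half-site TGACG, the interferon-γ-related GAS motif TTCNNNGAA and the TATA box TATAAA, searched on both strands, were found in none of the 5 entries; 17.8%, 7.02% and 12.4% of all promoters held them. These are matches of letters in a fixed window and were not tested as sites.

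The receptor genes differed widely in level, and their order was the same in all 8 libraries: Adora1, Adora2b, Adora2a, Adora3, then Tmigd3. The level of Adora1 (ENSMUSG00000042429, chr1:134199223-134235431), the receptor gene of the Gi-coupled A1 receptor, had a median of 27.7 FPKM and ranged from 26.6 to 29.3. It ranked 1791 of 17867 protein-coding genes by mean FPKM, above 90.0% of them.

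Adora2b (ENSMUSG00000018500, chr11:62248984-62266453), for the A2B receptor, had a median level of 8.48 FPKM (8.25 to 11.2) and stood above 69.3% of protein-coding genes. Adora2a (ENSMUSG00000020178, chr10:75316877-75334784), whose receptor SCH 58261 blocks, had a median of 1.73 FPKM (1.31 to 2.18) and stood above 39.1%. Adora3, whose receptor 2-Cl-IB-MECA activates, had a median of 0.735 FPKM (0.595 to 0.833) and stood above 30.8%. Both receptors addressed by the ligands were thus those with the lowest transcript levels of the 4.

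Within a library, Adora1 was 2.50 to 3.55 times Adora2b in FPKM, Adora2b 3.89 to 8.54 times Adora2a, and Adora2a 2.13 to 2.81 times Adora3. No neighbours in this order overlapped: the lowest Adora2a level (1.31 FPKM) was above the highest of Adora3 (0.833 FPKM). Tmigd3 had a median of 0.0664 FPKM (0.0530 to 0.123), and Adora3 was 6.77 to 14.3 times higher in a library. In counts, Tmigd3 had 4 to 11 per library, and there were 4.32 to 9.09 Tmigd3 counts for every 100 Adora3 counts.

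**Figure D2:**
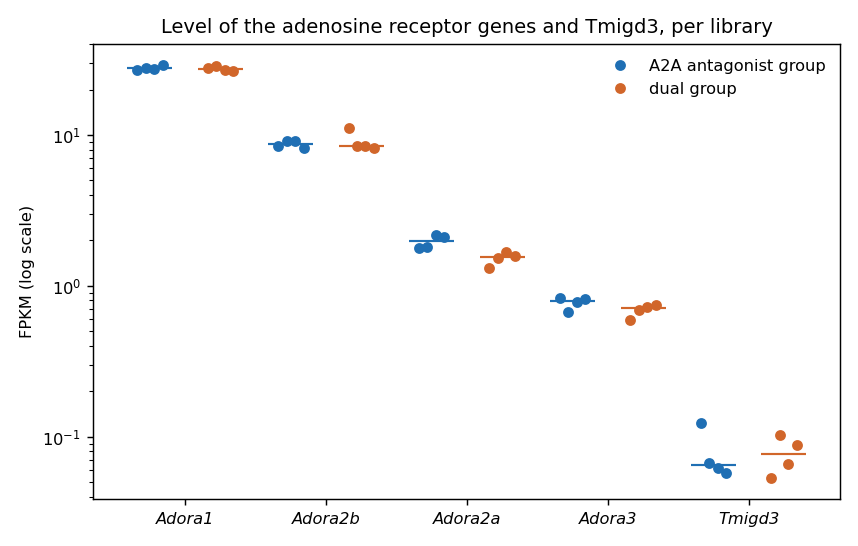
FPKM (log axis) of the 5 genes in each of the 8 libraries; points are libraries, coloured by group, and short lines are group medians. Adora1 lies between 26.6 and 29.3 FPKM and Tmigd3 between 0.0530 and 0.123, and no gene overlaps the next one in the order.

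The order did not rest on the shared exons. When only bases that belong to no other gene were used as length, with all counts kept, the median level was 0.936 FPKM for Adora3 and 0.101 FPKM for Tmigd3, the values that would hold if no read from shared bases had been counted. Adora1 overlaps Mybph, which encodes a myosin-binding protein and lies on the opposite strand (chr1:134193448-134201232), by 1162 exonic bases (20.1% of the 5785 of Adora1). Its median level was 34.9 FPKM when those bases were left out of the length. Mybph itself was at 0.480 to 1.01 FPKM, with 568 counts over the 8 libraries, and did not pass the test between the groups (log2 fold change 0.07, SE 0.21, adjusted p = 0.935, edgeR). Adora2a and Adora2b overlap no other annotated exon, and none of their 31-base words occurred in transcripts of another gene. For Adora1, 18.6% of such words occurred in other genes, and for Adora3, 4.28% occurred in genes other than Tmigd3.

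Of the summed FPKM of the 4 receptor genes (37.2 to 41.1 in a library), Adora1 took 68.1 to 72.8%, Adora2b 20.4 to 27.2% and Adora3 1.45 to 2.18%. Adora2a took 4.60 to 5.50% in the A2A antagonist group and 3.19 to 4.44% in the dual group, so the groups did not overlap in this share. Of the transcripts of the Gs-coupled pair alone, Adora2a made up 16.7 to 20.5% in the A2A antagonist group and 10.5 to 16.5% in the dual group, and Adora2b the rest. Both shares are computed from the Adora2a levels compared below and are not separate observations.

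The comparison of the dual with the A2A antagonist group asked what the A3 receptor agonist changed in the presence of the A2A receptor antagonist. Adora2a was lower in each dual library than in each A2A antagonist library, but it did not pass the adjusted threshold, and the other receptor genes showed smaller differences with intervals that included 0. No member was called among the 4 that passed the low-count filter, where 0.208% of the 18756 genes tested were called (edgeR quasi-likelihood test, adjusted p under 0.05). At an unadjusted p under 0.05 there was 1 member, Adora2a, against 12.8% of all genes (6.81% when only those lower in the dual group are counted). DESeq2 called 3.37% of the 11313 genes for which it gave an adjusted p and neither Adora1 nor Adora2b, and gave none for Adora2a and Adora3. Adora2a was also the only 1 of the 4 whose groups did not overlap in CPM (counts per 1000000), against 7.42% of all genes.

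The Adora2a counts were 212, 254, 281 and 297 in A2A antagonist libraries 1 to 4 and 132, 180, 238 and 217 in dual libraries 1 to 4. Scaled for library size, these were 5.50, 5.58, 6.72 and 6.54 CPM with the antagonist and 4.05, 4.73, 5.19 and 4.89 CPM with both ligands. The highest dual library (5.19 CPM) was below the lowest antagonist library (5.50 CPM), by less than the spread within either group. The log2 fold change was -0.36 (SE 0.10, 95% interval -0.58 to -0.14), a change of -22.2% (-33.2 to -9.37%), with an unadjusted p of 0.00282 and an adjusted p of 0.144 by edgeR. An exact permutation test of its log2 CPM gave p = 0.0286 (two-sided), the smallest value that 70 arrangements of 4 against 4 allow. By unadjusted p it ranked 367 of all genes tested. Of the 1421 genes of like level (within 0.5 log2 CPM), 98.4% had a smaller absolute log2 fold change, and their median was 0.09.

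With each library left out in turn, the log2 fold change of Adora2a stayed between -0.42 and -0.30 and the adjusted p between 0.0883 and 0.376. The spread of Adora2a within a group was larger than counting noise alone, with a coefficient of variation of 10.4% against 6.23% from counting in the A2A antagonist group and 10.3% against 7.36% in the dual group.

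Summed levels of 2 marker lists, microglia and oligodendrocyte lineage, did not overlap between the groups and were lower in the dual group. Those of the astrocyte, fibroblast, mural, endothelial and neuronal lists overlapped. Among single genes, 7.42% of all tested did not overlap in CPM. The 12 microglial markers summed to 616 to 691 FPKM with the antagonist and 569 to 605 FPKM with both ligands. This lay in C1qa, which was called lower in the dual group (log2 fold change -0.24, SE 0.04, adjusted p = 0.0240, edgeR); without it the other 11 markers summed to 203 to 213 and 201 to 212 FPKM, which overlapped. Of the 12, 5 had estimates above 0 and 7 below. Aif1, a calcium-binding protein of microglia, had a log2 fold change of -0.21 (SE 0.05, adjusted p = 0.110, edgeR). Csf1r had one of 0.11 (SE 0.03, adjusted p = 0.171, edgeR), and its groups did not overlap, with the dual group higher.

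The 8 oligodendrocyte lineage markers summed to 224 to 240 FPKM with the antagonist and 204 to 223 FPKM with both ligands, and to 105 to 108 and 97.3 to 106 FPKM, which overlapped, without Olig1. For the fibroblast markers 5 of 6 estimates were above 0 and none was called. An unadjusted p under 0.05 (edgeR) was found for 3, all higher, against 5.98% of all genes in that direction. Their log2 fold changes were 0.23 for Lum, 0.14 for Col3a1 and 0.11 for Dcn. Summed levels of the 6 (280 to 315 and 281 to 352 FPKM) overlapped. Of the 9 astrocyte markers none was called, and 4 had an unadjusted p under 0.05 (edgeR), 2 higher and 2 lower, against 12.8% of all genes. Relative to the summed microglial markers, Adora2a differed by -0.20 on the log2 scale and the groups overlapped. Relative to the 11 microglial markers without C1qa, the difference was -0.35 and the groups did not overlap. Relative to each of the 12 markers alone, it ranged from -0.61 (P2ry12) to -0.13 (C1qa), with -0.16 for Aif1, and the groups did not overlap for 5 of the 12. These denominators were chosen after the marker levels had been seen. All of these ratios use the same Adora2a levels, which did not overlap between the groups themselves, and are not separate observations. The part of cell composition in the Adora2a difference was not tested.

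For Adora2b, the other Gs-coupled receptor gene, 605, 764, 711 and 696 counts were found in the A2A antagonist group, and 679, 599, 724 and 681 in the dual group. In CPM these were 15.7, 16.8, 17.0 and 15.3 against 20.8, 15.7, 15.8 and 15.4. Dual library 1 stood above all others, and the remaining 3 dual libraries lay within the range of the antagonist group. The log2 fold change was 0.06 (SE 0.08, 95% interval -0.12 to 0.23, adjusted p = 0.836, edgeR). Without dual library 1 it was -0.05 (SE 0.06). In the A2A antagonist group the log2 ratio of Adora2a to Adora2b counts was -1.42 ± 0.164 (SD, n = 4), and in the dual group it was -1.84 ± 0.354 (SD, n = 4). Those ratios did not overlap, but only narrowly: the lowest in the antagonist group was -1.589 and the highest in the dual group -1.605. They use the Adora2a counts again and are not a separate observation. The difference of -0.42 ranged from -0.50 to -0.25 with each library left out.

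Counts of Adora3 were 121, 114, 122 and 139 in the A2A antagonist group, and 73, 99, 125 and 124 in the dual group, or 3.14, 2.51, 2.92 and 3.06 CPM against 2.24, 2.60, 2.72 and 2.80 CPM. The groups overlapped, since antagonist library 2 lay below 3 of the 4 dual libraries. The log2 fold change was -0.16 (SE 0.13, adjusted p = 0.665, edgeR), and its 95% interval allowed changes from -25.9% to 8.45%. The coefficient of variation within the groups, 9.67% and 9.59%, stood beside 9.0% and 9.92% from counting noise alone. The log2 ratio of Adora2a to Adora3 was 1.07 ± 0.177 (SD, n = 4) and 0.86 ± 0.0501 (SD, n = 4), and the groups overlapped.

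Adora1 was covered by 6110, 7370, 6696 and 7743 counts in the A2A antagonist group, and by 5326, 6347, 7222 and 6885 in the dual group. Its level in CPM was 158, 162, 160.2 and 170.4 against 163, 167, 157 and 155, and the groups overlapped. The log2 fold change was -0.02 (SE 0.04, adjusted p = 0.876, edgeR). This was the most precise of the members, with a 95% interval from -6.31% to 3.94%.

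Tmigd3, with 11, 7, 6 and 6 counts against 4, 9, 7 and 9, did not pass the low-count filter. The groups summed to 30 and 29 counts and overlapped, and the ratio of dual to antagonist after scaling was 1.03, with an interval for counting error alone of 0.596 to 1.77. An exact permutation test of its log2 CPM gave p = 0.971. A change of up to about these bounds was not detectable at this depth.

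**Figure D3:**
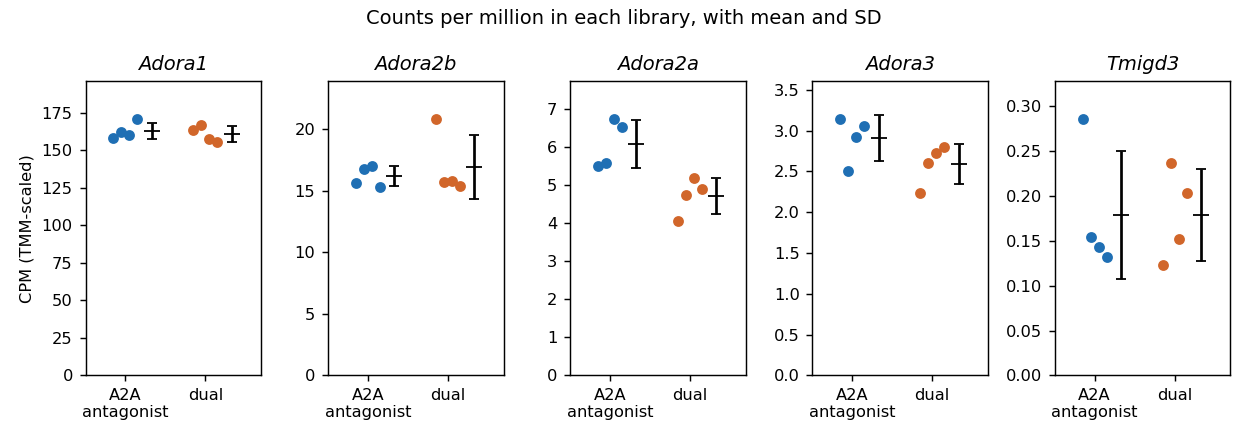
CPM of each member in the 4 A2A antagonist (blue) and 4 dual (orange) libraries, each panel with its own axis from 0; crossbars and error bars are mean and SD. Adora2a is the member whose groups do not overlap, and dual library 1 stands apart for Adora2b at 20.8 CPM.

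**Figure D4:**
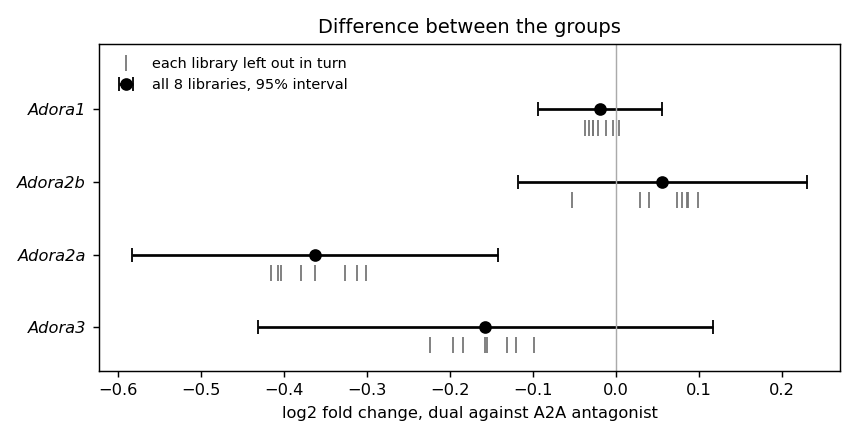
Log2 fold change of the 4 tested receptor genes, dual against A2A antagonist, from edgeR: points with 95% intervals for all 8 libraries and grey ticks for each library left out in turn. The interval of Adora2a (-0.58 to -0.14) does not include 0 before adjustment, and those of Adora1, Adora2b and Adora3 do.

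Genes whose pattern over the 8 libraries was nearest to a member were found by the root mean square difference of centred log2 CPM. For Adora2a these were Ccl3, a chemokine gene (difference 0.0914), and Bcl2a1a, a gene of the BCL2 family with near-identical copies whose counts are therefore uncertain (0.0995); the median candidate was at 0.233. Ccl3 had a log2 fold change of -0.37 (adjusted p = 0.0240, edgeR) and Bcl2a1a one of -0.26 (adjusted p = 0.0572). Adora2b was nearest to Susd2 (0.0484) and Htra1, a secreted protease (0.0526), with 0.152 for the median candidate. For Adora3 the nearest were Med31, a Mediator subunit (0.0557), and Lcp2, an adaptor of immune receptor signalling (0.0606), with a median of 0.164, and for Adora1 Tm9sf4 (0.0107) and Zscan29 (0.0132), with a median of 0.0762. Each likeness rests on 8 libraries of 2 groups and is a description. The genes were picked as nearest over these same libraries. Distances below the median candidate and fold changes near that of the member therefore follow from the choice and are no support for it.

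The genes that supply and remove adenosine were mostly at low levels. Of 23 listed, 12 had a mean below 1 FPKM, among them Nt5e, which encodes CD73 and forms adenosine outside the cell (0.979 FPKM), and Ada, which encodes adenosine deaminase (0.954 FPKM). The highest were Pnp, a purine nucleoside phosphorylase (11.7 FPKM), Ahcy, which releases adenosine from S-adenosylhomocysteine (8.57 FPKM), and Slc29a3, a nucleoside transporter (8.52 FPKM). Of 19 genes tested, none was called, and 1 had an unadjusted p under 0.05, a smaller share than the 12.8% of all genes: Pnp, with a log2 fold change of -0.16 (SE 0.05, adjusted p = 0.148, edgeR). The median log2 fold change was 0.01, beside 0.00376 over all genes tested.

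Of the G proteins and adenylyl cyclases, the Gi subunit Gnai2 had the highest level (231 FPKM), followed by Gnai3 (44.9 FPKM) and the Gq subunit Gnaq (26.6 FPKM), while Gnas, the Gs subunit, was at 7.66 FPKM. None of 18 tested was called, and Gnai1 alone had an unadjusted p under 0.05 (log2 fold change 0.20, SE 0.08, adjusted p = 0.290, edgeR); the median was 0.00417. Again this share was below the 12.8% of all genes. Gnas was named after its values were seen. Overlaps of Gnas and the other pathway genes with further genes were not examined, so these levels are uncertain to that extent. Among 27 tested receptor regulators and cyclic AMP effectors none was called. Prkar1a, a regulatory subunit of protein kinase A (95.8 FPKM), Grk2, which phosphorylates activated receptors (58.1 FPKM), and Prkaca, a catalytic subunit of protein kinase A (49.3 FPKM), had the highest levels. An unadjusted p under 0.05 was found for 3 genes, also a share below 12.8%: Grk2 (log2 fold change -0.10) and Prkaca (-0.08), lower in the dual group, and the phosphodiesterase gene Pde3a (0.13), higher; the median was 0.02.

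The 12 cyclic AMP-responsive genes, which many other signals also induce, had a median log2 fold change of 0.09, with 10 higher and 2 lower in the dual group. None was called in the edgeR test. The highest levels were those of the immediate early genes Junb (166 FPKM, log2 fold change -0.07) and Fos (44.6 FPKM, 0.18) and of the phosphatase gene Dusp1 (24.8 FPKM, 0.19). An unadjusted p under 0.05 was found for 3, Nr4a1, Fos and Dusp1, all higher, against 5.98% of all genes in that direction. Nr4a1, a nuclear receptor gene, had the largest estimate of the 12 (0.51, SE 0.17, adjusted p = 0.205, edgeR), with groups that overlapped. It was called only in the fit without the low-count filter (adjusted p = 0.00163, edgeR). That fit called 366 of 31406 genes, against 39 of 18756 in the main fit. DESeq2, which gave an adjusted p for 11313 genes only and none for Adora2a, called none of the 12.

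**Figure D5:**
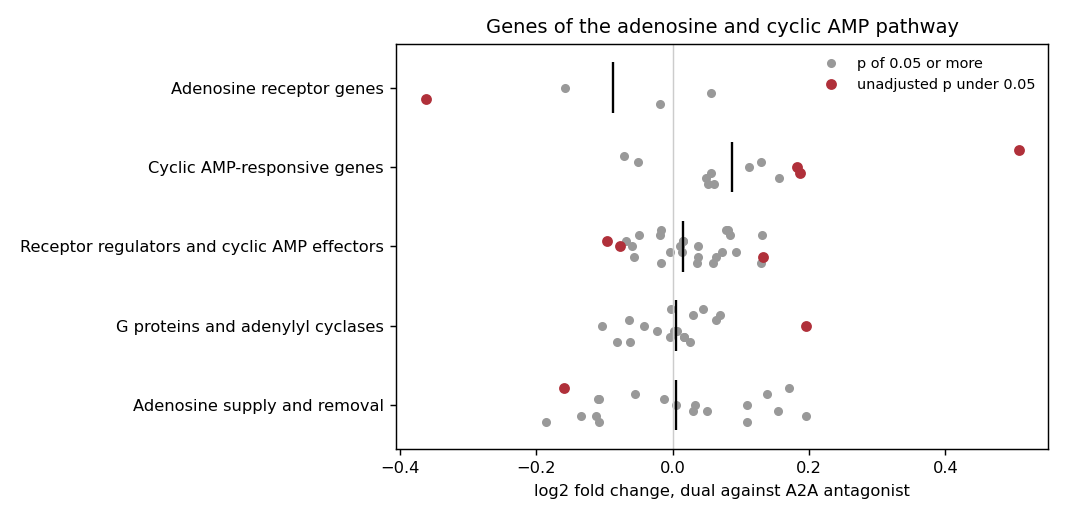
Log2 fold change, dual against A2A antagonist, of each tested gene of the 4 pathway lists and of the 4 receptor genes; black bars are medians, and red points have an unadjusted p under 0.05 (edgeR). No point passed the adjusted threshold, Adora2a lies at -0.36, and Nr4a1 at 0.51 is the point farthest to the right.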

How the data were processed

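Libraries were prepared from total RNA of 8 cultures. The methods state that paired-end reads were aligned to an Ensembl mouse genome with HISAT2; the labels give mm10 and featureCounts 1.5.0-p3 for counting. The methods describe a directional and a non-directional library preparation without saying which was used, and the strand setting of the counting is not given in the sources used here. The number of replicates in the methods differs from the 4 libraries of each group in the deposited table, which were all used. The deposited values are raw counts per gene, without normalization or pooling, and the deposited FPKM values, which the authors computed from those counts and the gene length. Implied FPKM library sizes were 0.996 to 1.01 times the total counts.

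Counts were tested with edgeR 4.0.16 (R 4.3.3; limma 3.58.1): filterByExpr (minimum count 10), TMM scaling, quasi-likelihood F test without covariates, Benjamini-Hochberg adjustment over all genes tested, threshold 0.05. FPKM levels were compared without a test. DESeq2 1.42.0, other scaling, no filter, a replicate block, shared-exon lengths and each library left out were the alternatives. The members and lists were chosen with earlier results of these data known. Named were all members, genes overlapping them, the 3 highest genes (by mean FPKM) and any called gene of each pathway list, the 2 highest of each marker list, and the 2 nearest patterns per tested member among protein-coding genes with a mean log2 CPM of 3 or more; others were named after their values were seen. Coordinates are GRCm38: 31358 of 31406 identifiers were in GENCODE M21, 30554 of them with identical coordinates. Not used were 25 columns of per-sample values, 9 of them of control libraries, and the deposited columns with the authors' fold changes and p-values. The fit was tested on simulated data. Library pairs within a group differed by 3.58 to 8.65 times the chi-square per degree of freedom of counting noise, so none was a copy. Intervals for counts cover counting error only.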

Additional observations from a re-analysis of the deposited data

Results flagged for a closer look

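In 5 of 92 groups of 4 libraries examined, 1 library lay far from the other 3 by Dixon's criterion; chance gives about 1 in 20. For the members, Adora2b was at 20.8 CPM in dual library 1, with the others at 15.4 to 15.8 CPM, and Tmigd3 was at 0.285 CPM (11 counts) in A2A antagonist library 1, with the others at 0.132 to 0.154 CPM. A pair of values repeats the first by construction and adds nothing independent: the log2 ratio of Adora2a to Adora2b counts was -2.36 in dual library 1, against -1.73 to -1.61 in the other 3 libraries of the group, and Htra1, chosen for its likeness to Adora2b over the libraries, was at 28.8 CPM there, against 21.2 to 21.9 CPM. Of the astrocyte markers, Gfap was at 1549 CPM in A2A antagonist library 3, against 1656 to 1678 CPM. Dual library 1 also had the lowest total count of the 8 (32630602).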

How the results depend on the processing

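Of 212 values recomputed under alternatives (the marker denominators of Adora2a not included), 191 kept their direction and side of the threshold or stayed within the spread, 14 moved and 7 changed sign. Some of the 191 were fixed by construction, since exclusive exon lengths cannot change Adora2a and Adora2b, which share no exons. A number of called genes near the main one was taken as kept, such as 31 and 49 against 39. The number of genes called was 39, and 366 without the low-count filter, 17 with the replicate block, 381 with DESeq2 and 0 to 172 with each library left out; 0 were called without A2A antagonist library 4 or without dual library 3 (1802 and 2092 genes at an unadjusted p under 0.05), 5 and 6 without antagonist library 2 or 3, and 172 without antagonist library 1. No member was called under any alternative. Leaving out libraries gave log2 fold changes of -0.038 to 0.0035 for Adora1, -0.053 to 0.10 for Adora2b, and -0.12 to 0.28 for Tmigd3, all of which crossed 0, and -0.22 to -0.10 for Adora3. Without the filter 1 cyclic AMP-responsive gene, Nr4a1, was called. With exclusive exon lengths the medians were 34.9, 0.936 and 0.101 FPKM for Adora1, Adora3 and Tmigd3. The adjusted p of Adora2a ranged from 0.0661 (no filter) to 0.376, and DESeq2, which gave none, had an unadjusted p of 0.00256. Replicate numbers did not pair the libraries: deviations of same-numbered libraries correlated at 0.02, -0.05, 0.04 and -0.01. With the replicate block Adora2a had a log2 fold change of -0.37 (adjusted p = 0.165, edgeR), and the block called no member. The causes were not tested. Counting error was largest for Tmigd3 (4 to 11 counts per library) and Adora3 (73 to 139).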
